A study of Mus musculus with 8 samples.

Results

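The synaptic vesicle and exocytosis genes described here are the synaptotagmins (Syt), syntaxins (Stx), Vamp genes, Snap genes, Sv2 genes, synapsins (Syn), complexins (Cplx), Rab3 genes and syntaxin-binding genes (Stxbp). The rule reads the symbol alone, the start of the name and a number or letter, and uses no measured value. The rule found 65 of the 22609 gene symbols in the count files: 17 Syt, 15 Stx, 7 Vamp, 7 Stxbp, 5 Snap, 4 Cplx, 4 Rab3, 3 Sv2 and 3 Syn genes. A symbol rule takes in genes with other jobs too. Snap91, for example, encodes AP180, a clathrin assembly protein, and is not a SNARE.

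The study asked whether gene expression differs by sex in the sensory neurons of the mouse DRG (dorsal root ganglion), where the cell bodies of touch, pain and muscle afferents lie. Both groups were naïve C57BL/6J mice of 8 to 12 weeks, 4 samples from females in the oestrous phase and 4 from males. In both groups the lectin conjugate WGA Alexa Fluor 488 was injected into hindpaws and thighs, lumbar ganglia were taken 2 days later, and neurons that had carried the dye back from skin and muscle were sorted by fluorescence. Each sample held sorted cells of 6 ganglia, RNA was amplified with the SMART-seq2 protocol, and single reads of 50 bases were sequenced. The labels give no animal for each sample, so p-values measure the spread between these 8 samples, and the preparation holds whatever neuron types reach those tissues, in proportions that the sort did not set.

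Neurons release transmitter when the membrane of a vesicle fuses with the plasma membrane. A SNARE protein on the vesicle (a Vamp, also called synaptobrevin) zips together with a syntaxin and a SNAP-25 type protein on the target membrane, and syntaxin-binding proteins act on the syntaxin. Complexin steadies the partly zipped complex, a synaptotagmin senses calcium, Rab3 and Sv2 proteins act on vesicle priming, and synapsins tether vesicles in reserve. Sensory neurons use this machinery for fast glutamate release at their spinal endings and for slower release of neuropeptides from dense-core vesicles at both ends of the axon. What was measured is RNA in the cell body.

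Depth was 4.80 to 7.33 M gene reads per library (M, 1000000 reads). Levels are given as counts per 1000000 gene reads (CPM), and 3 reads in a library correspond to 0.409 to 0.625 CPM. This floor covers counting error only, since reads had no molecular identifiers. Female replicate 4 stood apart. Its counts differed from those of the other females by 31.8 to 48.3 in chi-square per degree of freedom, against at most 12.8 for any other pair of one sex. The main counts, intervals and medians of the sex comparison are given with and without it. Levels, cell type markers and most fits of single genes are given only with it. Xist had 395 to 764 reads in female and 0 to 6 in male libraries, and Ddx3y 0 in female and 240 to 309 in male libraries. All 12 pan-neuronal markers examined had at least 3 reads in every library, while the blood markers Hba-a1 and Hbb-b1 were at 0 throughout. Markers of satellite glia and Schwann cells were plentiful, with summed levels of 11679 to 15013 CPM in females and 5479 to 11266 CPM in males.

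Of the 65 members, 59 had at least 3 reads in every library and 55 had at least 10. Cplx3, Cplx4, Syt8 and Vamp7 had under 3 reads in every library. Syt8, a synaptotagmin, Cplx4 and Vamp7 had none in any of the 8. Vamp7 was the only member without a gene of its name in the annotation used for lengths, so its count of 0 is given only as listed. Stx19 had 0 to 3 reads per library. The members together took 1.36% (male replicate 1) to 1.51% (female replicate 3) of all gene reads, and the shares of the sexes overlapped: 1.45%, 1.40%, 1.51% and 1.49% in females and 1.36%, 1.46%, 1.45% and 1.42% in males.

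To compare genes with each other, CPM was divided by the exon length of the gene in kilobases (RPKM). In 8 of the 9 families the library ranges of the first and the second gene did not overlap. The exception was Sv2.

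**Figure D1:**
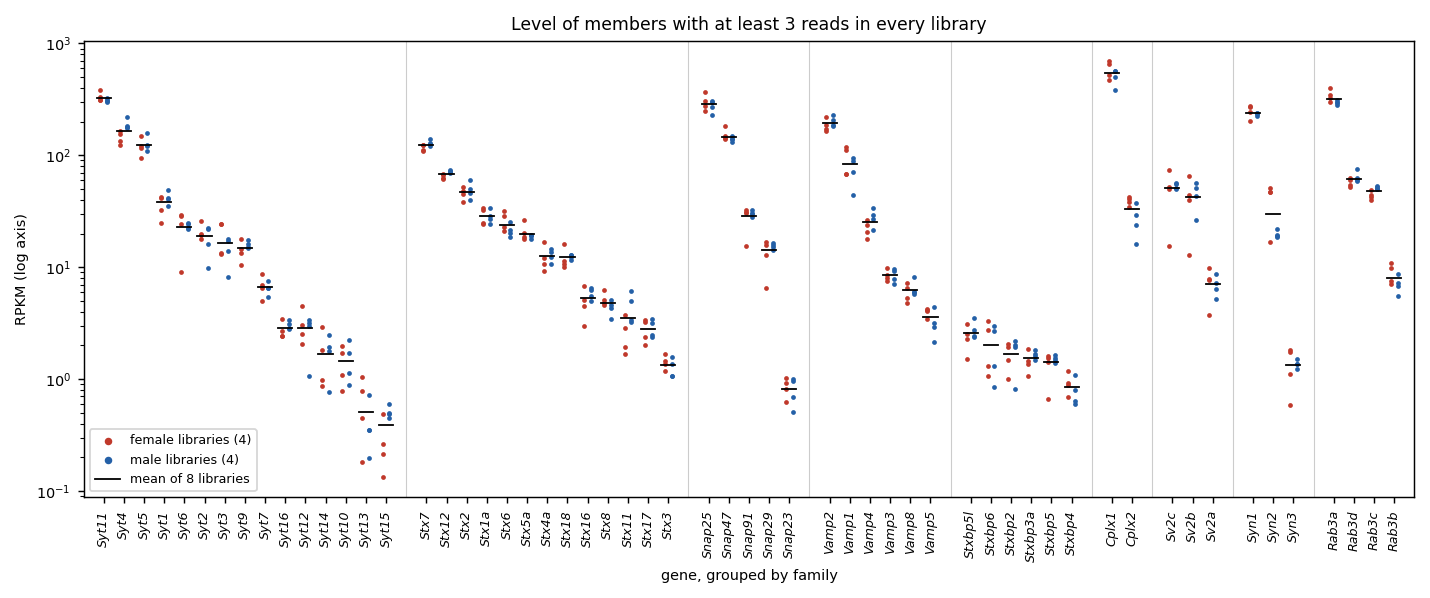
RPKM (log axis) of 57 of the 59 members with at least 3 reads in every library, grouped by family and ordered within it by the mean. Each dot is a library, red for the 4 females and blue for the 4 males, and the bar is the mean of 8. With the exon lengths used here the highest mean is that of Cplx1 at 545 RPKM, and the Sv2 genes overlap where the complexins and synapsins are far apart.

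Among the SNAREs, Snap25, which supplies a pair of helices to the fusion complex, was the most abundant Snap gene. Its level was 1875, 1685, 2069 and 2485 CPM in females and 1550, 2098, 2027 and 1824 CPM in males, a mean of 287 ± 42.4 RPKM (SD, n = 8). Snap47 followed with 146 ± 15.3 RPKM. Snap23, the relative used widely outside neurons, was low, at 0.818 ± 0.191 RPKM, which left Snap25 with 99.67% to 99.83% of the pair's summed RPKM over the 8 libraries. Snap47 shares 11.6% of its exon bases with Jmjd4 on the other strand, as do Rab3b (9.0% with 8030443G20Rik), Stx18 (13.7% with Nsg1) and Syt6 (8.73% with the pseudogene Atg4a-ps), and the strand setting of the counting was not stated.

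Vamp2, the classical vesicle SNARE, led its family at 194 ± 23.1 RPKM, followed by Vamp1 at 83.2 ± 25.0 RPKM. Vamp3, also called cellubrevin, stood at 8.45 ± 1.03 RPKM. The gap between Vamp2 and Vamp1 depends on the length used, because the annotated exons of Vamp1 add up to 8746 bases and its longest coding transcript to 3011. With the transcript length, Vamp1 came to 242 RPKM and Vamp2 to 336 RPKM.

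The syntaxins were led by members of the endosomal system. Stx7, a late endosome syntaxin, reached 123 ± 9.26 RPKM and Stx12, of recycling endosomes, 68.4 ± 4.49 RPKM. Stx1a, the plasma membrane syntaxin of synapses, had 28.8 ± 4.20 RPKM and stood below Stx2 at 47.4 ± 6.73 RPKM. It made up 7.99% of the family's summed level. Stx4a, a plasma membrane syntaxin found in many cell types, had 12.5 ± 2.45 RPKM.

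Of the proteins that act on the SNAREs, Stxbp5l had 2.56 ± 0.588 RPKM. Its relative Stxbp5, which encodes tomosyn and holds syntaxin back from vesicle SNAREs, had 1.41 ± 0.317 RPKM. By exon length Cplx1 had the highest level of the members, 545 ± 98.6 RPKM, and was 16.6 times Cplx2 at 32.9 ± 9.16 RPKM. With the length of the longest coding transcript Snap25, at 922 RPKM, passed Cplx1, still at 545 RPKM.

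The synaptotagmins were led by genes that are not the classical fast sensors. Syt11, whose protein does not bind calcium in the way that drives fusion, had 324 ± 27.4 RPKM, and Syt4, found on dense-core vesicles, had 167 ± 30.1 RPKM. Syt5 followed with 124 ± 20.3 RPKM. Syt1, the fast calcium sensor of many forebrain synapses, had 38.5 ± 7.37 RPKM and its relative Syt2, the fast sensor of hindbrain and neuromuscular synapses, 19.2 ± 4.79 RPKM. Syt9 stood at 14.97 ± 2.35 RPKM, and Syt7, a slow sensor of high calcium affinity, at 6.63 ± 1.14 RPKM. Syt11, Syt4 and Syt5 made up 43.6%, 22.3% and 16.6% of the summed RPKM of their family.

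On the vesicle itself, Syn1 had 241 ± 23.0 RPKM, Syn2 30.0 ± 15.2 RPKM and Syn3 1.34 ± 0.387 RPKM, so Syn1 held 88.6% of the synapsin sum by exon length. Syn3 shares 14.1% of its exon bases with Timp3 on the other strand. Rab3a, the small GTPase of synaptic vesicles, had 321 ± 38.9 RPKM, ahead of Rab3d at 61.0 ± 7.17, Rab3c at 47.7 ± 4.81 and Rab3b at 7.94 ± 1.76 RPKM, and the library ranges of Rab3d and Rab3c overlapped by a little. The Sv2 genes encode vesicle glycoproteins that also serve as receptors for botulinum neurotoxin A. Sv2c had 50.6 ± 16.2 RPKM and Sv2b 42.4 ± 16.5 RPKM, which were not apart beyond the spread, and Sv2a, the form found throughout the brain, had 7.09 ± 1.94 RPKM. The leading gene of all 9 families stayed the same with transcript lengths, but 16 of the 59 members with at least 3 reads in every library came out over 1.5 times as high. Beside Snap25, Vamp1 and Vamp2 these included Syn3 (4.12 RPKM), Stxbp5l (4.97), Syt1 (66.6), Stx4a (20.3) and Snap23 (1.29), and Syn2 came to 44.4 RPKM. Ranked by CPM without length, Sv2b passed Sv2c and the other 8 leaders stayed.

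The sexes were then compared in an edgeR quasi-likelihood fit of the counts of all genes, and 59 members passed its expression filter. Each fold change is female over male. After Benjamini-Hochberg adjustment over the 12518 genes tested, 0 of 59 members passed 0.05, where 0.0879% of all tested genes did. At an unadjusted p under 0.05 there were 6 of 59 members (10.2%), against 7.1% of all tested genes. Of these, 2 were higher in females (Syn2 and Cplx2), where the background was 4.62%, and 4 were higher in males (Syt4, Rab3c, Stx11 and Syt15), where it was 2.48%. DESeq2 and limma-voom also passed 0 members after adjustment and gave the same 6 genes at an unadjusted p under 0.05. In these tests 0.383% and 0.0799% of genes passed after adjustment, and 7.42% and 7.12% at the unadjusted threshold. The median log2 fold change was -0.06 over the tested members and 0.01 over all tested genes, with 26 members above 0 and 33 below.

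Without female replicate 4 the counts at an unadjusted p under 0.05 became 4 higher in females and 7 higher in males, 11 of 59 members (18.6%), where the background was 11.4%, with 5.7% higher in females and 5.72% higher in males. The genes added were Syn1 and Syt6 on the female side and Stx7, Stx12 and Stx18 on the male side. Syt6 changed direction with that exclusion, from a log2 fold change of -0.05 (unadjusted p 0.867) with all libraries to 0.21 (unadjusted p 0.0229), and Stx18 moved from -0.06 to -0.24. Under the same exclusion the median over members moved to 0.03. Without male replicate 4, without male replicate 2 and without female replicate 1, members higher in males numbered 1, 2 and 2, where 1.51%, 1.72% and 3.97% of all tested genes were. Members higher in females numbered 1 without female replicate 2, without female replicate 3, without male replicate 1 and without male replicate 2, against 3.86%, 3.25%, 3.16% and 4.02% of all tested genes.

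**Figure D2:**
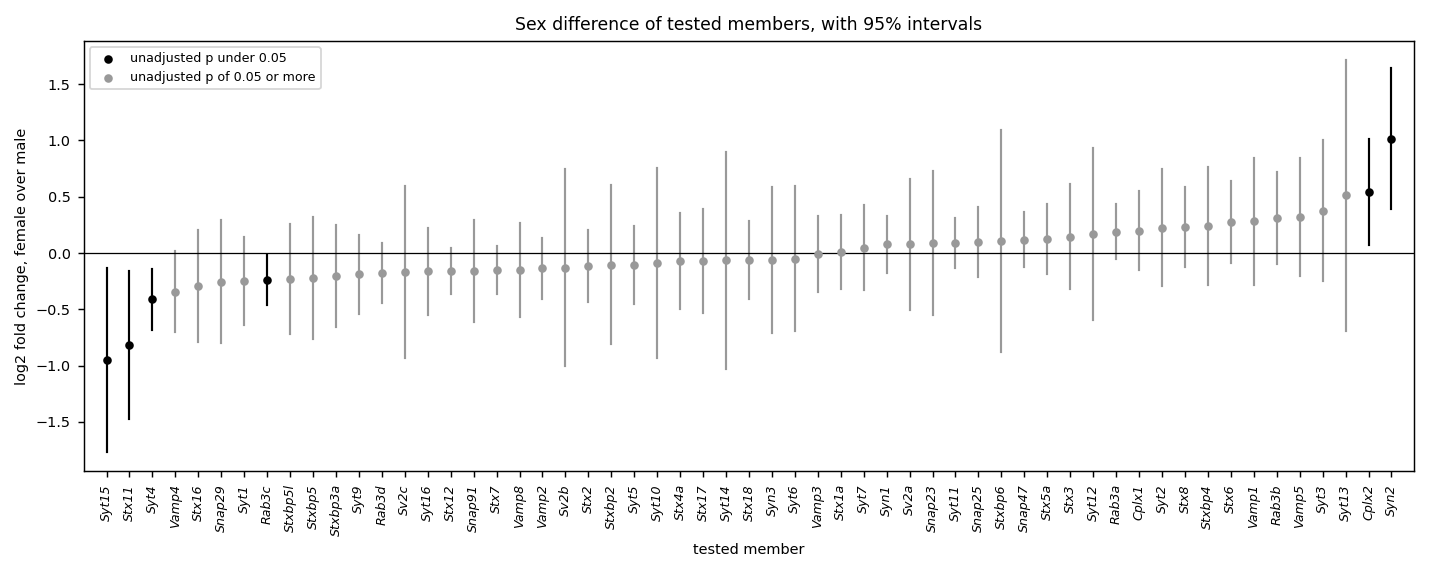
Log2 fold change, female over male, of 57 of the 59 tested members in the edgeR fit, ordered by value, with 95% intervals as bars. Black marks the 6 members with an unadjusted p under 0.05, from Syt15 at -0.95 to Syn2 at 1.02, and grey the rest, whose intervals all include 0.

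Syn2 had the largest female excess among the 59 tested members. It encodes synapsin II, the second most abundant synapsin here, and lies on chromosome 6 from 115084920 to 115232644, plus strand, in NCBIM37 (mm9). Its levels were 95.5, 292, 265 and 267 CPM in females and 105, 108, 111 and 126 CPM in males. Female replicates 2, 3 and 4 lay more than 2-fold above every male, and female replicate 1 lay below them all. The log2 fold change was 1.02 ± 0.28 (SE, 95% interval 0.39 to 1.64), a 2.02-fold excess, with an unadjusted p of 0.00444 and an adjusted p of 0.551. It kept an unadjusted p under 0.05 in all 8 fits that left out a library. Without female replicate 1 the log2 fold change was 1.27 and the adjusted p 0.00126, the only adjusted pass of any member in those fits, in a fit where 0.668% of genes passed. Over all alternatives its adjusted p ranged from 0.00126 to 0.972.

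Syn1, on chromosome X from 20437637 to 20498130, minus strand, did not share that pattern. It had 886, 811, 908 and 671 CPM in females and 781, 783, 748 and 766 CPM in males, so that 3 females were above all males and female replicate 4 was below them. Its log2 fold change was 0.08 with a 95% interval of -0.18 to 0.33, and without female replicate 4 it was 0.16 (0.02 to 0.30, unadjusted p 0.0284, adjusted p 0.385). As a result the Syn1 share of the Syn1 and Syn2 sum, per length, was 94.1% in female replicate 1 and 91.3% to 92.8% in males, but 82.8%, 85.5% and 81.3% in the other females.

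The start regions of these genes are shown because Syn1 is the most abundant synapsin and Syn2 the one with the largest sex difference. They are the 250 bases before the RefSeq start, on the strand of the gene, in GRCm38.p6, a later build than that of the counts. Capitals mark a CRE (TGACGTCA) and the partial RE1 site TTCAGCACC in Syn1, and GC boxes (GGGCGG) in the Syn2 window shown.
Syn1, chrX:20920919-20921168, minus strand: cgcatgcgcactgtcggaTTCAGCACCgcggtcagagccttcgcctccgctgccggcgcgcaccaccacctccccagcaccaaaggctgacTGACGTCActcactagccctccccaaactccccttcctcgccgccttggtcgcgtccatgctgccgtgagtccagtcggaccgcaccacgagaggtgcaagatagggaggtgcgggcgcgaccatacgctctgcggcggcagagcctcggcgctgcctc
Syn2, chr6:115134652-115134901, plus strand: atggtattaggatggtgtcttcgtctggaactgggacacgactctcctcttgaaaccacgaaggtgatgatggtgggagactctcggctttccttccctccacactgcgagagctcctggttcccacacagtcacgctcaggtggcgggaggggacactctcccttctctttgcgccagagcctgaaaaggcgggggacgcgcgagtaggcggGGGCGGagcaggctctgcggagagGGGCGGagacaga

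In these windows both strands were searched. Of the 65 members 50 had a window. The GC box, the letters bound by Sp1 family factors, was found in 35 of the 50 (70%) against 35.4% of 27025 genes with a window. These 27025 genes outnumber the 22609 gene symbols counted, so they include genes not counted here. They were not matched to the members by expression or gene type, so the sets compared are unlike. TATAAA was found in 4 (8%, against 14.3%). The CRE and the partial RE1 site were each found in 1, both times Syn1 (2%), against 1.77% and 0.348% of genes. The CRE, an element of CREB factors, began 159 bases before the start and the partial RE1 site, an element of the neuronal repressor REST, 232 before it. The 2 GC boxes of Syn2 began 37 and 13 bases before the start shown. The window of its other RefSeq start, chr6:115238744-115238993, held none of the motifs searched. A match is a description of letters, not a binding site.

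Cplx2, complexin II, on chromosome 13 from 54472713 to 54485278, plus strand, was the other member higher in females. Its levels were 209, 187, 202 and 171 CPM in females and 79.4, 117, 185 and 143 CPM in males. Females varied little and only male replicate 3 reached their range. This was a log2 fold change of 0.54 ± 0.21 (SE, 95% interval 0.07 to 1.02), with an unadjusted p of 0.0290 and an adjusted p of 0.647. It kept an unadjusted p under 0.05 in 3 of the 8 fits that left out a library. The lowest value came from male replicate 1, and without it the log2 fold change was 0.36 with an unadjusted p of 0.0563.

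Syt4 had the smallest p among members higher in males. It had 638, 604, 486 and 519 CPM in females and 856, 695, 689 and 717 CPM in males, and every male library was above every female one. Female over male, the log2 fold change was -0.41 ± 0.12 (SE, 95% interval -0.68 to -0.14), with an unadjusted p of 0.00667 and an adjusted p of 0.608, and it kept an unadjusted p under 0.05 in all 8 fits that left out a library. Its adjusted p ranged from 0.222 to 0.972 over the alternatives. Exons of a noncoding gene on the other strand, Gm16871, cover 14.7% of its exon bases.

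Rab3c, a Rab3 form of neurons and secretory cells on chromosome 13 from 110844395 to 111071109, minus strand, had 393, 437, 382 and 356 CPM in females and 469, 448, 445 and 471 CPM in males. The males were all above the females, by a narrow gap. For Rab3c the log2 fold change was -0.24 ± 0.10 (SE, 95% interval -0.46 to -0.02), with an unadjusted p of 0.0368 and an adjusted p of 0.689. When each library's trend with exon length was removed, the log2 fold change was -0.12 and the unadjusted p 0.328. With the replicate number as a block in the edgeR fit they were -0.24 and 0.0733. Rab3c kept an unadjusted p under 0.05 in 2 of the 8 fits that left out a library.

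The other members higher in males were low. Stx11, a syntaxin known from lytic granules of immune cells, on chromosome 10 from 12659787 to 12684065, minus strand, had 29, 27, 33 and 53 reads in females and 57, 98, 49 and 81 in males. In CPM the means were 6.12 ± 2.24 (SD, n = 4) and 10.6 ± 3.26, and female replicate 4, at 8.93 CPM, overlapped the males. For Stx11 the log2 fold change was -0.82 ± 0.30 (SE), with an unadjusted p of 0.0201 and an adjusted p of 0.635. Syt15, on chromosome 14 from 35032781 to 35043607, plus strand, had 8, 4, 12 and 8 reads in females and 19, 17, 14 and 21 in males. These are few reads, and female replicate 3, at 2.50 CPM, lay within the male range of 2.31 to 3.11 CPM. For Syt15 it was -0.95 ± 0.37 (SE), with an unadjusted p of 0.0266 and an adjusted p of 0.647. Stx11 and Syt15 kept an unadjusted p under 0.05 in 4 and 5 of the 8 fits that left out a library.

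**Figure D3:**
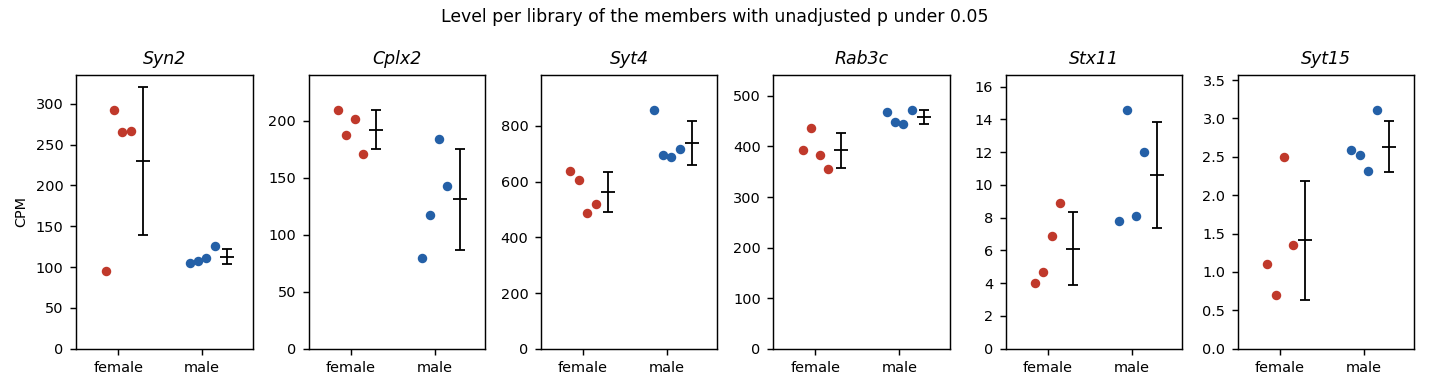
CPM per library of the 6 members with an unadjusted p under 0.05, 4 female libraries in red and 4 male libraries in blue, with the mean ± SD of each sex beside the dots. Female replicate 1, the lowest red dot of Syn2 at 95.5 CPM, lies with the males, and for Syt4 and Rab3c all male dots are above all female dots.

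Syt17 was not tested because of its low counts, with 12, 10, 4 and 7 reads in females and 2, 2, 3 and 2 in males. It had an unadjusted p under 0.05, higher in females, when no filter on low counts was applied. The sexes did not overlap in scaled CPM for 4 of the 59 tested members, Syt4, Rab3c, Stx7 and Stx12, in each case with all males above. The background was 5.66% of tested genes in either direction and 2.98% with all males above. For Stx7 the separation appeared only after scaling, since female replicate 4 had 310 CPM and male replicate 3 had 304 CPM before it. Without female replicate 4 the sexes did not overlap for 8 members, 6 with all males above and 2, Syn1 and Cplx2, with all females above, where 12.1% of all tested genes did not overlap in either direction. Without male replicate 3 there were 7 such members, 6 with all males above and 1, Cplx2, with all females above, where 9.43% did not overlap.

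For the core of the fusion machinery the intervals give the size of difference that these samples leave possible. The log2 fold change was 0.10 (95% interval -0.21 to 0.41) for Snap25, 0.01 (-0.32 to 0.34) for Stx1a and -0.14 (-0.41 to 0.14) for Vamp2. It was 0.20 (-0.15 to 0.55) for Cplx1, 0.19 (-0.05 to 0.43) for Rab3a, 0.09 (-0.13 to 0.31) for Syt11 and -0.25 (-0.64 to 0.14) for Syt1. Without female replicate 4 most of these estimates moved closer to 0 or past it, to -0.01 (-0.25 to 0.23) for Snap25, -0.08 (-0.36 to 0.21) for Stx1a, -0.09 (-0.31 to 0.14) for Vamp2 and 0.11 (-0.21 to 0.44) for Cplx1. They were then 0.10 (-0.05 to 0.26) for Rab3a, 0.01 (-0.12 to 0.15) for Syt11 and -0.12 (-0.38 to 0.15) for Syt1, and all 7 intervals still included 0. The interval lay within a log2 change of 1 either way, that is within 2-fold, for 51 of the 59 members, and within 0.5 for 18. Without female replicate 4 these numbers were 52 and 29. The 8 members with wider or more distant intervals were Syn2, Cplx2, Stx11, Syt15, Sv2b, Stxbp6, Syt13 and Syt14, for example -0.69 to 1.71 for Syt13. By family, medians of the log2 fold change ran from -0.13 for Sv2 to 0.37 for the 2 tested complexins. Without female replicate 4 the Sv2 median turned to 0.16 (0.16 for Sv2b, 0.12 for Sv2c and 0.29 for Sv2a) and the complexin median was 0.35.

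Markers of cell types were also compared between the sexes, and 0 passed the adjusted threshold. At an unadjusted p under 0.05, where 7.1% of all tested genes stood, several lists held more. Summed markers of large-fibre neurons were 1633, 2135, 3026 and 2382 CPM in females and 847, 1706, 1709 and 1372 CPM in males, with 3 of 11 higher in females. Nefh alone made up 527, 1090, 1663 and 1155 CPM of the female sums and 280, 625, 598 and 498 CPM of the male sums. Summed markers of peptidergic neurons were 5664, 5627, 4801 and 6248 CPM in females and 8209, 5742, 6039 and 7022 CPM in males, with 4 of 7 higher in males. Of the 15 glial and Schwann cell markers 6 were higher in females, and of 5 tested fibroblast markers 4 were, with sums of 99.8 to 151 CPM in females and 44.8 to 85.6 CPM in males. Of 3 tested macrophage markers 2 were higher in females, at sums of at most 27.9 CPM. Of 8 markers of nonpeptidergic neurons, summed to 1846 to 3052 CPM in females and 2745 to 3343 CPM in males, 0 had an unadjusted p under 0.05. Sox10, a transcription factor of glia, had 31.2, 79.3, 105 and 77.2 CPM in females and 11.2, 21.7, 31.5 and 28.7 CPM in males, so that female replicate 1 lay within the male range. The part of these cell types in the differences of the members was not tested, and in bulk samples fewer cells of a type and less RNA per cell cannot be told apart.

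The balance within pairs of related genes varied between libraries of one sex. The Vamp1 share of the Vamp1 and Vamp2 sum, per length, was 23.5%, 26.8%, 39.4% and 41.8% in females and 16.1%, 33.6%, 32.5% and 25.6% in males. The lowest share was in male replicate 1, which also had the lowest sum of large-fibre markers, and the highest shares were in female replicates 3 and 4, which had the highest sums. Female replicate 2, at 2135 CPM of these markers, had a lower share than male replicates 2 (1706 CPM) and 3 (1709 CPM). The Syt1 share of Syt1 and Syt2 was 68.3%, 69.9%, 55.8% and 56.1% in females and 83.2%, 65.1%, 61.1% and 71.8% in males, highest again in male replicate 1 and lowest in female replicates 3 and 4. The Syt4 share of Syt4 and Syt11 was 34.4%, 31.9%, 28.4% and 25.6% in females and 41.8%, 37.1%, 35.1% and 36.8% in males, with no overlap of the sexes. These shares are descriptions of 8 libraries that differ in depth and in summed marker levels, with no test.

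**Figure D4:**
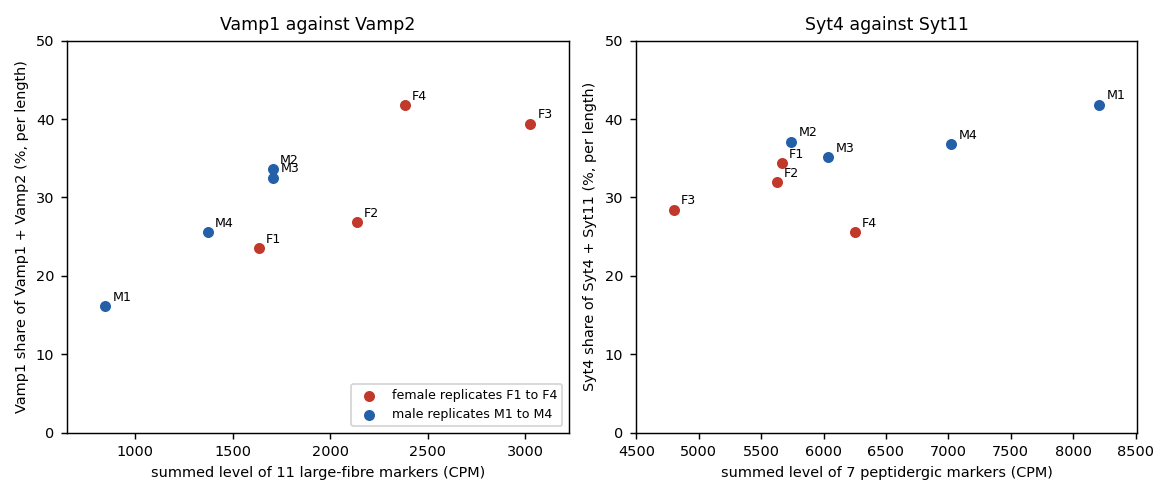
Left, the Vamp1 share of the Vamp1 and Vamp2 sum (%, per length) against the summed CPM of 11 large-fibre markers, and right, the Syt4 share of the Syt4 and Syt11 sum against the summed CPM of 7 peptidergic markers. Each point is a library, F1 to F4 female and M1 to M4 male replicates, and M1 sits at the lower left in the first and at the upper right in the second. In the first, Nefh was the largest part of the marker sum in every library. In the second, F4 had the lowest share, 25.6%, at 6248 CPM, a higher sum than M2 (5742 CPM) and M3 (6039 CPM).

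Among the 55 members with at least 10 reads everywhere, the lowest level was most often in female replicate 4, followed by male replicate 1. Female replicate 4 was the lowest library for 19 members and the highest for 11, and male replicate 1 the lowest for 12 and the highest for 9. In male replicate 1 the lowest members included Cplx1, Cplx2, Vamp1, Syt2 and Snap25, and the highest included Syt4, Vamp2, Syt1 and Syt5. With libraries scaled, 8 members (14.5%) in female replicate 4 were more than 2-fold below the mean of the other 7 libraries, against 14.1% of 11469 genes at the same read minimum. In male replicate 1 this held for 5 members (9.09%), against 4.46% of genes.

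The Sv2 genes showed female replicate 4 most plainly. Sv2b had 255, 229, 371 and 73.3 CPM in females and 150, 290, 320 and 249 CPM in males. Sv2c had 324, 226, 221 and 67.5 CPM in females and 250, 225, 241 and 219 CPM in males. In female replicate 4 they were 3.69-fold and 3.67-fold below the mean of the others, ahead of Syt6 (2.83-fold), Syn3 (2.50-fold), Snap29 (2.40-fold), Stxbp5 (2.34-fold), Sv2a (2.03-fold) and Snap91 (2.02-fold). Several other members were highest in the same library, among them Cplx1, Snap25, Rab3a, Syt11 and Vamp1. Across the 55 members the log2 ratio of female replicate 4 to the other libraries had a Spearman correlation of -0.38 with exon length, and across 11469 genes -0.55. These are correlations across genes of shared libraries, not across independent samples.

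**Figure D5:**
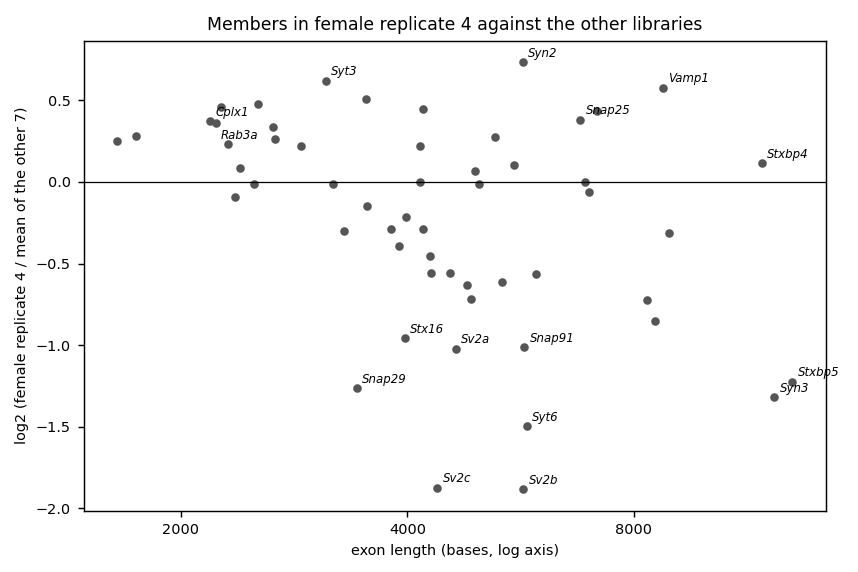
Log2 ratio of the scaled level in female replicate 4 to the mean of the other 7 libraries against exon length (bases, log axis), 1 point for each of 55 members. Points below -1 are the 8 members more than 2-fold lower there, led by Sv2b and Sv2c, while Syn2 at 0.74 is the highest.

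Other genes of the release pathway, taken from lists of release-site, vesicle membrane and vesicle recycling genes, gave 4 of 64 tested genes (6.25%) with an unadjusted p under 0.05, beside 7.1% of all tested genes, and 0 past the adjusted threshold. Of 24 tested release-site genes 2 were higher in females, the priming factor gene Unc13b (log2 fold change 0.64 ± 0.24, unadjusted p 0.0228) and Rims1, of the active zone scaffold (0.43 ± 0.18, unadjusted p 0.0408). Of 16 tested vesicle membrane genes 1 was higher in males, Dnajc5b, a relative of cysteine string protein, with 11, 7, 10 and 3 reads in females and 46, 14, 20 and 30 in males (-1.63 ± 0.45, unadjusted p 0.00405). Of 24 recycling genes 1 was higher in females, Dnm1, the dynamin that pinches off vesicles, with 129, 147, 150 and 171 CPM in females and 99.6, 114, 104 and 105 CPM in males (0.48 ± 0.12, unadjusted p 0.00158, adjusted p 0.41). Their medians were -0.07, -0.01 and 0.01, beside 0.01 over all genes. Without female replicate 4 the 4 genes became 12 (18.8%), where the background was 11.4%, and without male replicate 2 they became 2 (3.12%), where it was 5.74%.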

How the data were processed

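RNA of 8 sorted DRG neuron samples was sequenced, 4 per sex. Per the labels and the study's methods, the authors aligned reads to mm9 with TopHat2 and counted them per gene with HTSeq, and the deposited values are raw read counts, not normalized. Versions, annotation and strand setting are not given in the sources used here. From them, CPM and RPKM were computed, with exon lengths of GENCODE M1 on NCBIM37. Sexes were compared with edgeR 4.0.16 in R 4.3.3 (TMM, filterByExpr, quasi-likelihood test, sex alone), adjusted over 12518 genes. Alternatives used DESeq2 1.42.0, limma 3.58.1 (voom), other scaling and filters, a length correction, a replicate block and leaving out each library. The fit was tested on simulated data, with 200 genes changed in each run. After adjustment it passed 0 of them at 1.5-fold, 115 at 2-fold and 196 at 4-fold. False calls numbered 0, 9 and 18. Members with known core roles, those with an unadjusted p under 0.05, the first 2 of each family and, by name, those under 3 reads were named. Snap29, Stx2, Stx18, Stxbp6, Syt6, Syt13 and Syt14 were named after their values were seen. The symbol rule and the lists were proposed with earlier results of these data known. Depth was 4.80 to 7.33 M gene reads (M, 1000000 reads), and groups and replicate numbers came from the labels. Reads not assigned to genes were left out. Those in no gene were 57.8% to 60.5% per library of the reads counted as gene, ambiguous or no gene. For 2 members no values of their own are reported here.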

Additional observations from a re-analysis of the deposited data

Results flagged for a closer look

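Among 88 groups of 4 libraries examined, each of a single gene and sex, 3 had a library far from the other 3. In these the gap to the nearest library was 0.83 to 0.92 of the range. By chance 1 in 20 groups is flagged, about 4.4. Syn2 in female replicate 1 was 95.5 CPM while the other females had 265 to 292 CPM. Syt4 in male replicate 1 was 856 CPM while the other males had 689 to 717 CPM. Snap91, the clathrin assembly gene, was 88.8 CPM in female replicate 4 while the other females had 176 to 184 CPM. Without female replicate 1 the sex difference of Syn2 was larger, as given above.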

How the results depend on the processing

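The 41 named members were each refitted under 16 alternatives, 656 comparisons in all. In 595 the direction and the side of an unadjusted p of 0.05 stayed, in 20 the member lost it, in 7 a member gained it and in 34 the direction changed. Of the 34 only Syt6 without female replicate 4 had an unadjusted p under 0.05 (0.0229). Leaving out each library gave log2 fold changes from -0.076 to 0.223 for Snap23, -0.012 to 0.169 for Snap25, -0.251 to 0.035 for Snap91, -0.077 to 0.099 for Stx1a, -0.282 to 0.021 for Stx4a, -0.238 to 0.0024 for Stx18, -0.191 to 0.370 for Stxbp6, -0.100 to 0.292 for Sv2a, -0.464 to 0.165 for Sv2b, -0.454 to 0.121 for Sv2c, -0.260 to 0.184 for Syn3, -0.226 to 0.014 for Syt5, -0.190 to 0.212 for Syt6, -0.099 to 0.155 for Syt7, -0.519 to 0.146 for Syt14 and -0.091 to 0.058 for Vamp3. Stx1a was at -0.038 with the trend on exon length removed, and Vamp3 at 0.000795 with limma-voom and 0.00541 with library size alone; the cause was not tested. With that trend removed the median over members was -0.038 and the pathway lists held 7 of 64 genes (10.9%), beside 9.52% of all tested genes. Leaving out each library gave 1 to 4 members higher in females, 1 to 7 higher in males, 0 to 1 past the adjusted threshold, medians from -0.107 to 0.028, 4 to 8 members without overlap and 2 to 12 pathway genes. With the replicate number as a replicate block, 2 of 59 members were higher in females and 3 in males, beside 4.13% and 2.79% of all tested genes. Rab3c lost its call there, at a log2 fold change of -0.243 and an unadjusted p of 0.0733. The numbers name samples only: deviations of same-numbered samples correlated at 0.101, -0.113, 0.151 and 0.00741, and female replicates 2 and 3 did not correlate best with their own number. The length choices for RPKM were added after seeing the data. Depth limits Syt13, Syt15 and other genes of few reads.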
